A study of Allium sativum with 18 samples.

Results

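Garlic bulbs pass through a dormant period between bulb enlargement and sprouting, and a set of 183 genes in the storage clove was high before and after that period and low during it. The members were chosen from measured values. In storage clove their mean level was at least 10 FPKM both in enlarging and in germinating bulbs, and their mean in dormant bulbs was at most 25% of the smaller of those levels. FPKM corrects the fragments of a gene for its length and for the size of the library. The table held 57561 gene IDs, of which 12125 reached 10 FPKM in both enlarging and germinating storage clove, and the members were 1.51% of those 12125.

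The libraries came from *Allium sativum* plants labelled Chalingzipisuan, with no treatment other than stage. Bulbs were collected while enlarging, about when flower stems had sprouted, while dormant, and at germination with a short shoot. Basal and storage clove were then separated manually, which gave 6 groups of 3 biological replicates, 18 libraries in all. The gene IDs are paired with no names or descriptions in the data, so members are given by ID, no function is assigned to them, and the tissue labels were not checked against marker genes.

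As background, the storage clove of garlic is a swollen leaf that holds the reserves of the bulb, and the basal part carries the stem plate and the bud from which roots and shoot emerge. In dormant bulbs growth is arrested even when conditions would allow it, and metabolism is low. When dormancy ends, reserves are mobilised in the storage leaf while the bud and the root initials start to grow.

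In storage clove the members' group means had a median of 29.2 FPKM in enlarging, 3.19 FPKM in dormant and 52.95 FPKM in germinating bulbs. These are the values that chose the members, so they are given without a test. The dormant level was between 0% and 24.96% of the smaller of the other levels, with a median of 15.35%, and 43 of the 183 members were at 10% or less. The values of storage dormant clove lay below all 6 values of the other storage libraries for 180 members (98.4%, against 14.3% of the 30530 genes tested and 21.4% of the 12125 genes at the same expression floor). The other 3, singled out after their values were seen, were Asa1G03724.1, Asa7G06711.1 and Asa8G02977.1. The choosing rule favoured such separation for the members and not for the other genes, so the shares are not like for like. In Asa1G03724.1, germinating storage replicate 2 stood at 2.63 FPKM, below dormant replicates 2 and 3 at 5.35 and 7.94 FPKM. RNA was taken from whole tissue, so fewer cells of a type and less RNA per cell cannot be told apart.

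**Figure D1:**
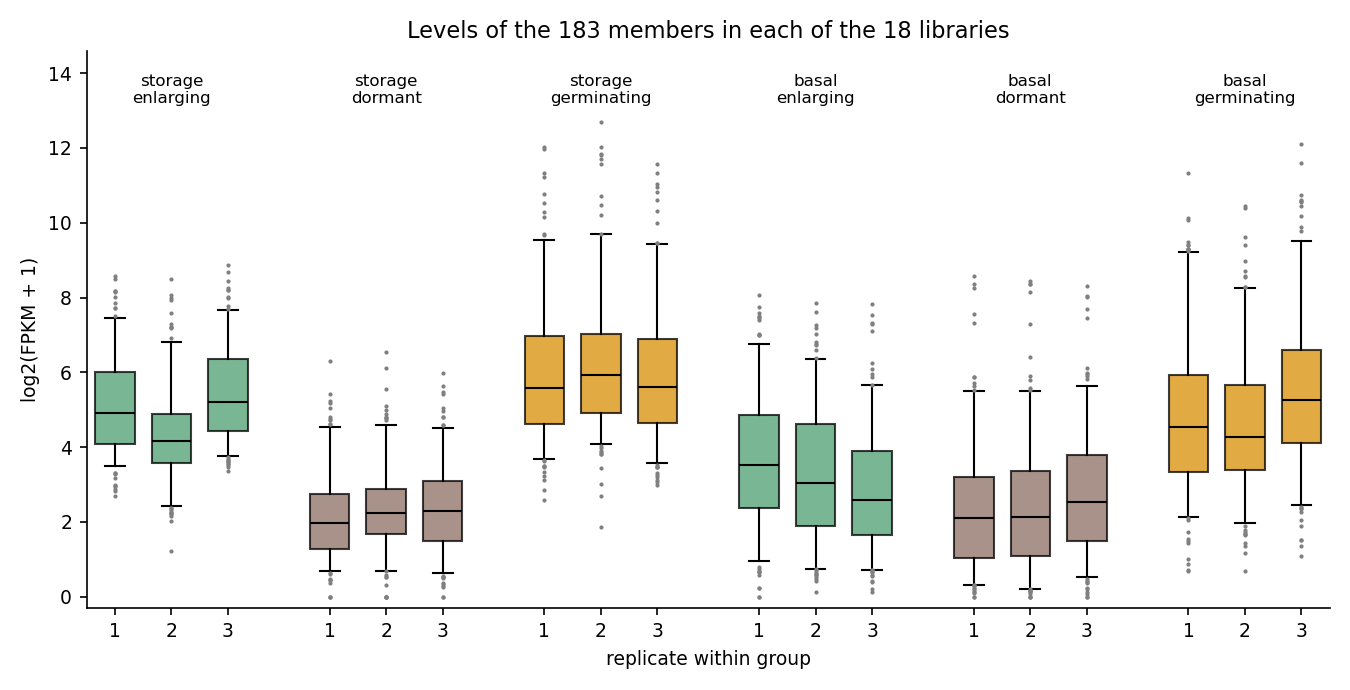
Levels of the 183 members, as log2(FPKM + 1), in each library, by tissue and stage; boxes span the quartiles, the line is the median, whiskers run from the 5th to the 95th percentile of members and points lie beyond. The median level was 2.91 to 3.91 in the dormant storage libraries and 17.0 to 36.0 in the enlarging storage libraries.

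The members with the highest storage levels on both sides of dormancy differed in basal clove. Asa2G05491.1 was at 381, 245.1 and 464.6 FPKM in enlarging storage replicates 1 to 3, at 77.2, 92.4 and 62.0 FPKM in dormant, and at 384.2, 420.7 and 434.6 FPKM in germinating storage clove. Its level in basal clove was far lower, at 26.7 ± 8.96, 11.0 ± 4.56 and 85.9 ± 26.3 FPKM in enlarging, dormant and germinating bulbs (mean ± SD, n = 3 libraries here and below), so the same order of stages was seen in both tissues. Asa2G05145.1 was at 361, 357 and 348.5 FPKM in enlarging, 42.1, 68.3 and 48.3 FPKM in dormant and 531.8, 501.5 and 472.7 FPKM in germinating storage clove. In basal clove it stood at 242.2 ± 23.4 FPKM when enlarging, 298.3 ± 34.6 FPKM when dormant and 709.6 ± 226.3 FPKM at germination. Its dormant low was therefore seen in storage clove and not in basal clove, where the dormant mean was above the enlarging mean.

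The deepest lows in storage clove came close to the limit of detection. Asa6G01243.1 was at 10.7, 12.2 and 10.1 FPKM in enlarging and 32.0, 28.9 and 29.5 FPKM in germinating storage clove, and had no read in the 3 dormant libraries. Over those libraries together, 3 reads on its coding length of 600 bp would correspond to 0.241 FPKM, so it was at least 45.7-fold lower than in enlarging clove. Asa0G02561.1 was at 28.3, 30.9 and 23.0 FPKM in enlarging and 306.9, 349.4 and 236.2 FPKM in germinating storage clove, against 1, 0 and 2 reads in the dormant libraries. Per unit of depth, its enlarging reads were 82.3 times the dormant ones, with a 95% interval of 28 to 401 (exact, counting error only). Most members had more reads than that. Reads over the 3 dormant storage libraries had a median of 48 per member and quartiles of 22 and 97, and 62 members had under 30.

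The threshold did not fall in a gap. Asa2G06070.1, the member nearest to it, was at 12.3 ± 3.56, 3.06 ± 1.55 and 13.05 ± 1.85 FPKM in enlarging, dormant and germinating storage clove, a dormant level of 24.96% of the smaller other one. Asa5G05802.1, the nearest gene left out, was at 25.3 ± 6.41, 6.398 ± 0.945 and 28.3 ± 3.71 FPKM, or 25.3%. Between 20% and 25% there were 50 genes, and between 25% and 30% there were 54.

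**Figure D2:**
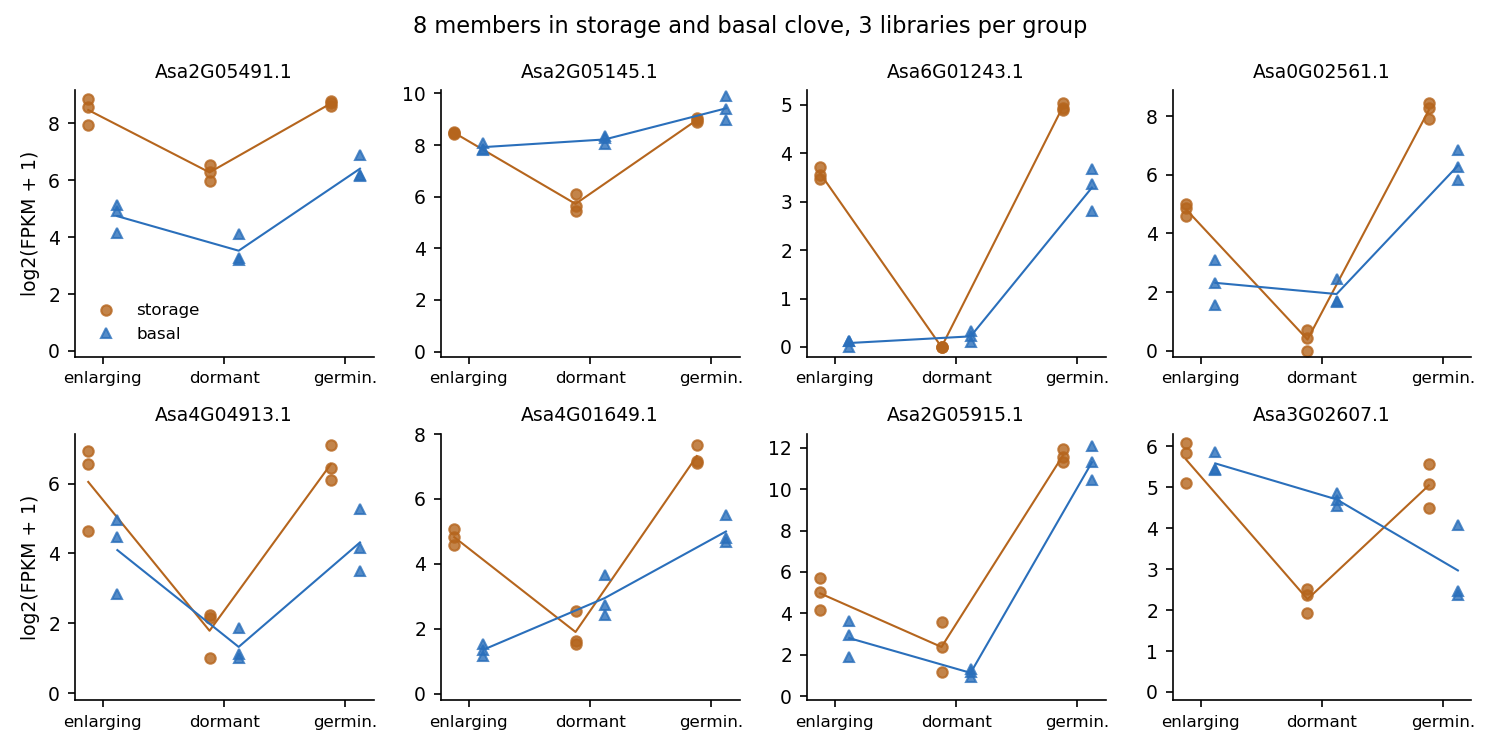
Levels of 8 members, as log2(FPKM + 1), in storage clove (circles) and basal clove (triangles) at each stage; each point is a library, lines join the group means on this scale and each panel has its own y axis. In storage clove all 8 have their lowest mean in dormant bulbs, as chosen, while in basal clove the mean dips (Asa4G04913.1), climbs (Asa4G01649.1) or declines (Asa3G02607.1) over the stages.

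Levels after dormancy were often above those before it. The ratio of the germinating to the enlarging storage mean had a median of 1.49 over the members, against 0.908 over the 12125 genes at the floor. The germinating mean was the higher for 124 members (67.8%), against 41.5% of the genes at the floor. It was higher by at least 2 times for 74 members and at least 4 times for 42, which was not counted for the genes at the floor. These values also chose the members and were not tested. Asa2G05898.1 went from 8.95, 7.69 and 19.1 FPKM in enlarging to 2569, 3610 and 1568 FPKM in germinating storage clove, and Asa6G00720.1 from 20.4, 11.9 and 31.8 FPKM to 4183, 6611 and 3016 FPKM. Their ratios were 217 and 215.9. For both genes the dormant level was low, at 1.74 ± 0.687 and 3.02 ± 2.35 FPKM, but the enlarging level was low too beside the germinating one. At the other end, Asa2G00643.1 was below its earlier level, with 70.95, 23.8 and 134.9 FPKM in enlarging and 16.4, 23.0 and 12.5 FPKM in germinating storage clove, and Asa4G05659.1 had 111.6, 39.5 and 143.3 FPKM and then 26.1, 23.8 and 28.1 FPKM. In Asa2G00643.1 and Asa4G05659.1 the enlarging values themselves differed several-fold between replicates, with replicate 2 the lowest.

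Basal clove was not used to choose the members, and its 9 libraries give the differences tested. The spread was estimated from all 18 libraries, among them the storage libraries that chose the members. Stage comparisons were made with limma on log2(FPKM + 1), in which a difference of 1 is a doubling at high levels and understates the change at low ones. The Benjamini-Hochberg adjustment ran over all 30530 genes tested, which included the 183 members, and a change was called at an adjusted p under 0.05.

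From dormancy to germination most members rose in basal clove. Of the 183, 151 were called higher (82.5%) and 3 lower (1.64%), whereas 26.1% of all genes tested were called higher and 42.7% lower. Among the 12125 genes at the storage floor, 26.5% were called higher and 52.1% lower. In either direction, 154 members (84.2%), 68.8% of all genes and 78.6% of the genes at the floor were called. For each of the 151 members the 3 germinating values exceeded the 3 dormant ones. No share over all genes is given for this separation, so it is not read as particular to the members. The median change was 1.96 over the members, against -0.27 over all genes tested and -0.30 over the genes at the floor. Median-ratio scaling moved the median of all genes to -0.03, and then 163 members were called higher, against 33.3% of all genes, whose share of higher calls went from 37.9% to 52.5%.

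The largest basal rises were accompanied by a wide spread between the germinating libraries. Asa2G05915.1 went from 1.47, 1.23 and 0.867 FPKM in dormant to 2593, 1406 and 4426 FPKM in germinating basal clove, a change of 10.18 (SE 0.56, limma adjusted p = 3.5e-10). In germinating storage clove it was as abundant, at 3207 ± 734.9 FPKM. Asa6G00720.1 went from 2.07, 0.486 and 0.784 FPKM to 1127, 309.3 and 3109 FPKM in basal clove, a change of 8.999 (SE 0.65, limma adjusted p = 7.2e-09). Replicate 3 was the highest and replicate 2 the lowest for both genes, and no dormant value approached a germinating one. The member that follows it in ID order, Asa6G00721.1, chosen after its values were seen, had the same order of libraries, with 605.3, 195.7 and 1709 FPKM in germinating basal clove. Whether the counting let such neighbours share reads is not stated.

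The members with the deepest storage lows and those with the highest storage levels also rose. Asa6G01243.1 was at 0.255, 0.0798 and 0.164 FPKM in dormant and 6.05, 9.36 and 11.8 FPKM in germinating basal clove, a change of 3.07 (SE 0.18, limma adjusted p = 7.1e-10). It was near the limit of detection in enlarging basal clove too, at 0, 0.0917 and 0.0862 FPKM, so its basal level was low at both earlier stages. Asa0G02561.1 went from 2.23, 4.51 and 2.15 to 76.6, 113 and 55.9 FPKM, a change of 4.38 (SE 0.34, limma adjusted p = 1.6e-08). For Asa2G05145.1, the member with a high basal level throughout, the change was 1.21 (SE 0.19, limma adjusted p = 3.0e-05). Asa2G05491.1 rose by 2.88 (SE 0.29, limma adjusted p = 3.4e-07), after a fall from enlarging to dormant basal clove of 1.21 (SE 0.29, limma adjusted p = 0.0051).

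Few members fell at that step. Asa3G02607.1 fell from 28.3, 24.96 and 22.4 FPKM to 4.54, 15.9 and 4.15 FPKM, by 1.74 (SE 0.38, limma adjusted p = 0.00075). In storage clove its dormant and germinating levels were 3.89 ± 0.983 and 33.7 ± 12.7 FPKM, the opposite order. Asa2G06070.1 was at 41.6, 45.2 and 37.2 FPKM in dormant and 27.5, 22.4 and 32.7 FPKM in germinating basal clove, a change of -0.58 (SE 0.22, limma adjusted p = 0.030) that lost its call in 6 of 15 alternatives. These were median-ratio scaling, where it was -0.27 (limma adjusted p = 0.31), a pseudocount of 0.1, and leaving out dormant replicate 1 or 2 or germinating replicate 1 or 2 of basal clove, with limma adjusted p-values of 0.055 to 0.118. The remaining such member, named after its values were seen, was Asa4G01054.1.

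**Figure D3:**
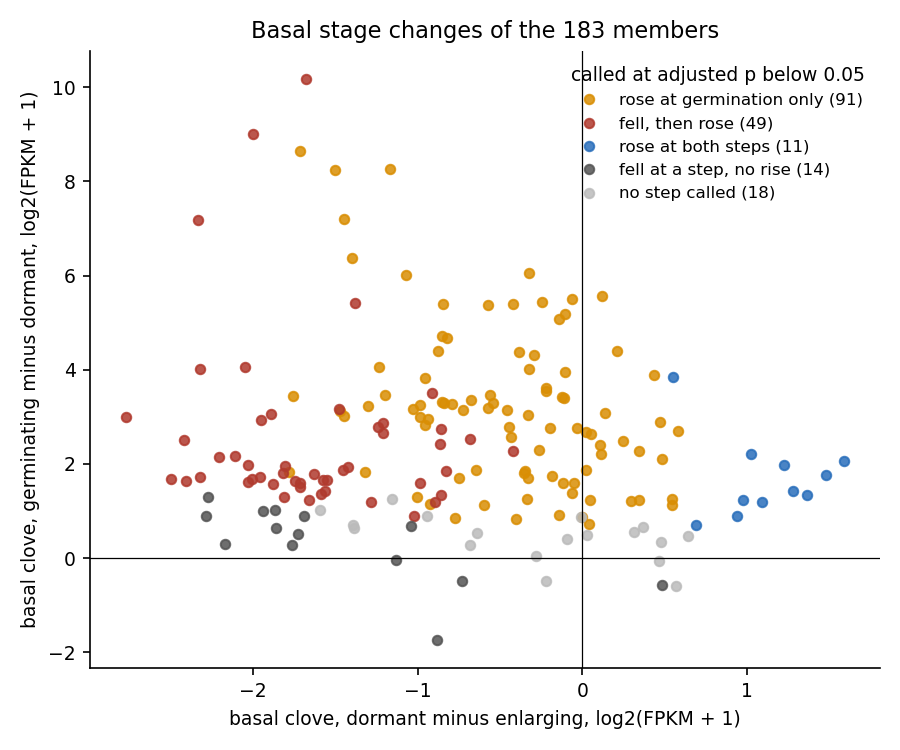
Basal stage changes of the 183 members on the log2(FPKM + 1) scale, dormant minus enlarging (x) and germinating minus dormant (y), with colour giving the calls at an adjusted p below 0.05. The 49 members that fell and then rose all lie in the upper left, while 91 rose at germination only and 11 rose at both steps.

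From enlarging to dormant bulbs a smaller part of the set was called lower in basal clove, and its excess over other genes depended on the method. On log2(FPKM + 1), 61 members were called lower (33.3%) and 11 higher (6.01%), against 15.0% and 16.5% of all genes tested, and 24.7% and 20.9% of the genes at the floor. In either direction, 72 members (39.3%), 31.5% of all genes and 45.6% of the genes at the floor were called. The median change was -0.82 for the members, -0.01 for all genes tested and -0.04 for the genes at the floor. The count of falls depended on single libraries. It was 36 of 183 without basal enlarging replicate 1 and 34 without replicate 2, and 35 and 33 without basal dormant replicates 1 and 2, while 11.0% to 12.7% of all genes were then called lower. Weighting reads recovered from the FPKM values by voom gave 36 (19.7%), near the 18.0% of all genes called lower by the same method.

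The largest basal falls were those of Asa4G04913.1 and Asa7G01770.1. Asa4G04913.1 was at 30.4, 21.1 and 6.22 FPKM in enlarging, 0.995, 1.17 and 2.64 FPKM in dormant and 16.9, 10.4 and 37.7 FPKM in germinating basal clove. It fell by 2.77 (SE 0.62, limma adjusted p = 0.0029) and rose by 2.99 (SE 0.62, limma adjusted p = 0.00046), and in storage clove it stood at 79.6 ± 49.9, 2.69 ± 1.48 and 97.4 ± 36.0 FPKM. Asa7G01770.1 was at 11.7, 12.9 and 4.995 FPKM in enlarging and 0.238, 1.12 and 1.23 FPKM in dormant basal clove, a fall of 2.50 (SE 0.54, limma adjusted p = 0.0023). With voom, whose log2 scale has no pseudocount of 1 FPKM, the changes were -3.38 (SE 1.49) and -3.60 (SE 1.44) and were not called, at limma adjusted p-values of 0.086 and 0.060. The basal values of these genes varied several-fold between replicates, although no dormant value reached an enlarging one.

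Opposite movements were found for a smaller number. Asa4G01649.1 rose from 1.26, 1.90 and 1.55 FPKM in enlarging to 5.67, 4.38 and 11.7 FPKM in dormant basal clove, by 1.59 (SE 0.32, limma adjusted p = 0.0013). Its neighbour by ID, Asa4G01650.1, rose from 0.6745, 0.6655 and 0.765 FPKM to 3.43, 2.25 and 6.47 FPKM, by 1.48 (SE 0.30, limma adjusted p = 0.0016). In storage clove both were lower in dormant than in enlarging bulbs, at 2.95 ± 1.68 from 27.6 ± 5.05 FPKM and 2.97 ± 0.905 from 19.4 ± 3.95 FPKM. All 11 members that rose into dormancy in basal clove rose again at germination, as did 82.5% of all 183 members. The share among all genes that rose into dormancy was not counted, so this is not read as particular to the 11.

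Over both steps, 49 members (26.8%) were called lower at dormancy and higher at germination in basal clove, against 2.87% of all genes tested and 5.18% of the genes at the floor. Both steps use the same dormant libraries. The basal dormant mean was below both other basal means for 142 members (77.6%), against 18.2% of the genes at the floor. All dormant basal libraries lay below the 6 other basal libraries for 65 members (35.5%), against 6.03% of all genes tested and 8.17% of the genes at the floor. The depth of the storage low was fixed by the choice of members, so it is not compared with that in basal clove. Applied to the basal columns, the choosing rule found 23 genes among 11539 at the floor there, and 9 of them were members, which is 39.1% of the basal genes and 4.92% of the members. That overlap was 3 genes without basal enlarging replicate 1 and 18 without basal dormant replicate 3, with 15 and 40 genes then meeting the rule in basal clove. Of the 72 members that reached 10 FPKM in enlarging and germinating basal clove, the dormant level had a median of 52.9% of the smaller other level, and it ran from 8.32% to 240.3%. Over all 11539 genes at that basal floor the median was 136.9%.

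Across the whole interval, from enlarging to germinating basal clove, 112 members were called higher (61.2%) and 6 lower (3.28%), against 29.8% and 40.6% of all genes tested and 29.6% and 50.2% of the genes at the floor. In either direction, 118 members (64.5%), 70.3% of all genes and 79.8% of the genes at the floor were called. The median change was 1.56, and -0.19 for all genes, or 0.08 for all genes after median-ratio scaling, when 124 members and 38.3% of all genes were called higher. Asa2G05915.1 changed by 8.50 (SE 0.56, limma adjusted p = 1.3e-09) and Asa2G05898.1, from 6.44, 2.65 and 4.385 to 589.5, 416.1 and 1510 FPKM, by 7.09 (SE 0.45, limma adjusted p = 9.9e-10). Asa8G03869.1 fell, from 34.9, 45.65 and 13.0 to 5.34, 9.21 and 6.33 FPKM, by 1.88 (SE 0.54, limma adjusted p = 0.0057), and Asa3G02607.1 fell by 2.62 (SE 0.38, limma adjusted p = 1.3e-05). The number of falls was 14 without basal enlarging replicate 3.

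The sizes of the germinating-to-enlarging changes in storage and basal clove went together across the members, with Pearson r = 0.86 and Spearman rho = 0.83 over 183 genes on the log2(FPKM + 1) scale. The tissues share no library. Over the 12125 genes at the floor the values were 0.76 and 0.75. For the dormant-to-enlarging changes they were 0.51 and 0.49 over the members and 0.15 and -0.10 over the genes at the floor. For the germinating-to-dormant changes they were 0.79 and 0.62 over the members and 0.76 and 0.73 over the genes at the floor, so Spearman rho was there the lower for the members. The choosing rule bounded the storage dormant level of the members and not that of the genes at the floor. Coefficients that involve dormancy are therefore not like for like between the sets, and their differences are not read as a trait of the members. Genes are not independent replicates, and these coefficients are descriptions.

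**Figure D4:**
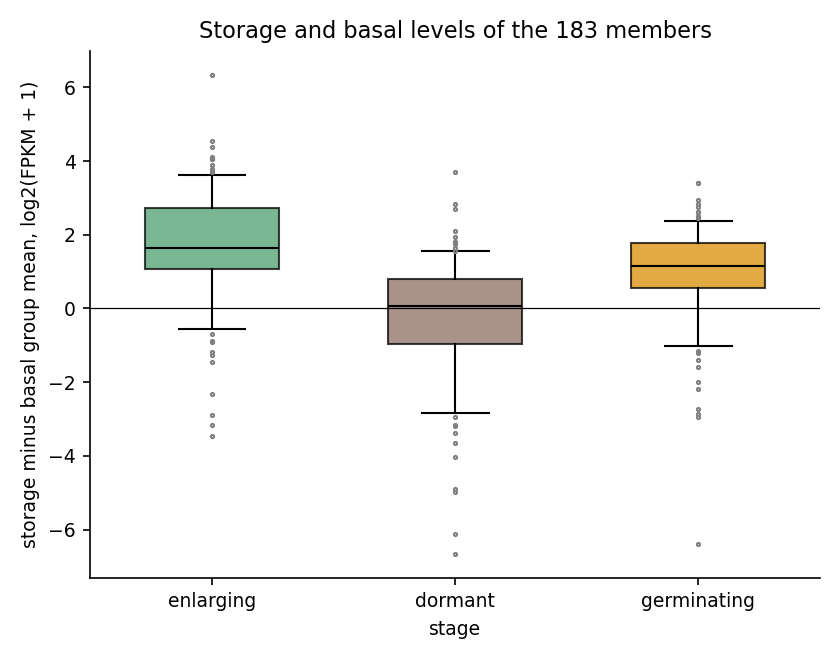
Difference between the storage and basal group means of each of the 183 members, on the log2(FPKM + 1) scale, at each stage, with boxes for the quartiles, a line for the median, whiskers to the 5th and 95th percentile and points beyond. Most members lie above 0 in enlarging and germinating bulbs and the dormant box spans 0.

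Outside dormancy the members were mostly higher in storage than in basal clove. These ratios use values of the choosing rule and were not tested. The storage mean was above the basal mean for 170 members (92.9%) in enlarging bulbs, with a median ratio of 3.46, and for 161 (88.0%) in germinating bulbs, with a median ratio of 2.25. Of the genes at the floor, 60.2% and 73.0% were higher in storage clove at these stages, with median ratios of 1.099 and 1.29. At dormancy 98 members (53.6%) were higher in storage clove with a median ratio of 1.06, near the 55.5% and 1.07 of the genes at the floor. All dormant storage libraries lay above all dormant basal ones for 45 members (24.6%) and below them for 55 (30.1%). A median ratio near 1 thus does not mean that single members were at like levels. Such separation was not counted for the genes at the floor, so whether it is more common among the members is not known.

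Single members differed widely in this ratio. Asa4G00325.1 was at 242.8 ± 82.7, 27.0 ± 4.69 and 753.3 ± 72.8 FPKM in enlarging, dormant and germinating storage clove, and at 2.004 ± 1.20, 1.13 ± 0.445 and 104.9 ± 82.3 FPKM in basal clove. Asa2G05488.1, at 12.4 ± 1.69 FPKM in enlarging storage clove, did not pass a mean of 1.35 FPKM in any basal group. In contrast, Asa1G01812.1 reached 1068, 1345 and 1162 FPKM in germinating basal clove against 18.8, 7.02 and 13.7 FPKM in germinating storage clove. Asa1G00637.1 was at 146.5 ± 23.3, 288.6 ± 35.1 and 674.9 ± 53.5 FPKM in basal and 15.35 ± 3.09, 3.13 ± 1.46 and 86.3 ± 8.10 FPKM in storage clove. In basal clove it was called higher at each step. It was among 15 members (8.20%, against 6.64% of all genes tested) whose dormant libraries all lay above the enlarging ones in basal clove and below them in storage clove. The choice of members fixed the storage part for them and not for all genes, so these shares are not like for like. How much basal tissue a storage sample held, or the reverse, was not tested.

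The members varied together between replicate libraries. In 5 of the 6 groups a single library held the highest value of the group for over 60% of the members. It was replicate 3 of enlarging storage clove (69.4%), replicate 2 of germinating storage clove (71.0%), replicate 1 of enlarging basal clove (62.8%), replicate 3 of dormant basal clove (68.9%) and replicate 3 of germinating basal clove (82.0%). For the genes at the floor no library exceeded 42.3%. The median SD of a member was 43.3%, 34.4% and 34.05% of its mean in enlarging, dormant and germinating basal clove, against 6.45%, 5.995% and 10.5% over the genes at the floor, whose basal levels were higher, at medians of 32.8, 31.3 and 27.9 FPKM. In storage clove, whose values chose the members, it was 43.0%, 36.1% and 19.2%, against 7.09%, 7.82% and 8.77% over the genes at the floor. Median storage levels were 29.2, 3.19 and 52.95 FPKM for the members and 35.4, 32.9 and 33.3 FPKM for the genes at the floor.

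**Figure D5:**
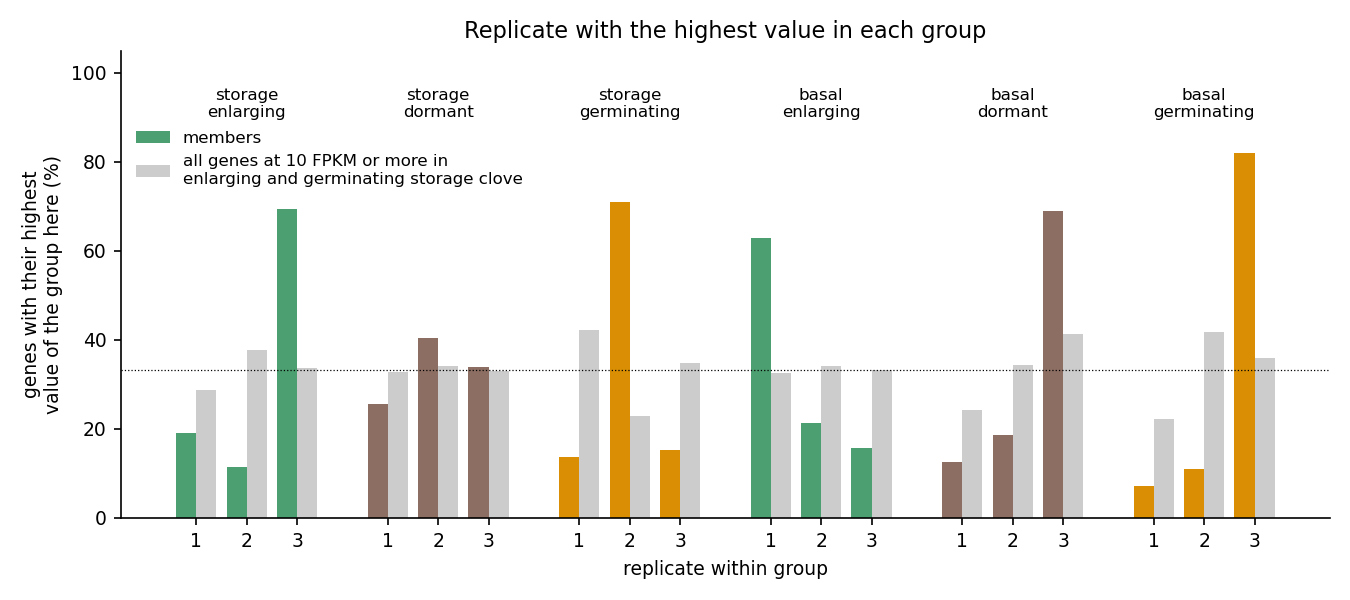
Share of genes (percent) that had their highest value of a group in each replicate, for the 183 members (coloured bars) and for the 12125 genes at 10 FPKM or more in enlarging and germinating storage clove (grey bars). The dotted line marks an even split, and replicate 3 of germinating basal clove holds 82.0% of the members.

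The likeness of these libraries to the other tissue was compared by Spearman correlation with its libraries of the same stage. Germinating basal replicate 3 correlated with the germinating storage libraries at a mean Spearman coefficient of 0.829, against 0.798 and 0.778 for replicates 1 and 2, and dormant basal replicate 3 with dormant storage clove at 0.839, against 0.826 and 0.829. Enlarging storage replicate 3 was the least like basal clove, at 0.857, and replicate 2, where the members were lowest, the most like it, at 0.895. Enlarging basal replicate 1, at 0.872, lay between replicates 2 and 3, at 0.878 and 0.870, and did not stand apart. Germinating storage replicate 2 was the least like basal clove, at 0.779, against 0.823 and 0.804 for replicates 1 and 3. The part of tissue separation in the members' values was not tested. Without germinating basal replicate 3, 133 members were still called higher than in dormant basal clove, against 23.7% of all genes. Without enlarging storage replicate 3, 152 genes met the choosing rule, 148 of them members. In this alternative, chosen after seeing the data, of those 148 members 123 (83.1%) rose at germination in basal clove and 52 (35.1%) fell at dormancy. With every library fitted, 26.1% of all genes tested were called higher at germination and 15.0% lower at dormancy. Of the genes at the floor, 26.5% and 24.7% were. By voom the falls at dormancy of all 183 members (19.7%) were near the 18.0% of all genes.

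The members had shorter coding lengths than the genes at the floor. Their coding length, recovered from the steps between FPKM values, had a median of 615 bp, against 879 bp over the genes at the floor and 765 bp over all genes tested. It was at most 600 bp for 87 members (47.5%) and for 33.1% of the genes at the floor. By ID they were spread over all prefixes of the table. The prefix Asa2G held 34 members (18.6%, against 14.1% of the genes at the floor), and Asa4G held 13 (7.10%, against 11.7%). Consecutive ID numbers occurred in 14 pairs that took in 28 members, Asa4G01649.1 and Asa4G01650.1 among them, and 52 members lay within 10 ID numbers of another member. Such neighbours were not counted for the genes at the floor, so whether they are more common among the members is not known.

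Dormant storage libraries were the shallowest, with 6540146 to 7155009 reads assigned to genes, against 10383944 to 12988262 in the other storage libraries and 17933342 to 21897520 in basal clove. There, 3 reads on a gene of 1 kb amount to 0.419 to 0.459 FPKM. The level of 3.19 FPKM at which the median member stood in those libraries was above that limit, and 14 members had a dormant storage mean under 1 FPKM. The limit is higher for genes shorter than 1 kb, and the median coding length of the members was 615 bp.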

How the data were processed

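Total RNA of garlic basal and storage clove was sequenced, 3 libraries per tissue and stage. The authors deposited 1 table of FPKM values, named so by the table's own name, with 1 column per library per the file headers. HISAT2 is named, without a version, per the submitters' processing notes. The counter, genome build, annotation and use of strand are not stated in the labels or the table, so overlapping and near-identical genes are uncertain.

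Reads were recovered from the steps of the FPKM values. With the library totals and the smallest whole length for each gene, 100% of 595800 values above 0 came out whole within 0.01 reads, in part because lengths were searched for. Totals were 6540146 to 21897520 reads. Floors and intervals cover counting error only.

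Members were found from group means. The 30530 genes that reached 1 FPKM in 3 or more libraries were fitted with limma 3.58.1 in R 4.3.3, with a variance trend, on log2(FPKM + 1), as 6 group means over 18 libraries (12 residual degrees of freedom). The model was tested on simulated data, in which genes varied independently of each other between libraries. The members varied together, so nothing about their calls is drawn from the simulation. Python 3.11.15 was used for the rest. The members, lists and tests were chosen with earlier results of these data known. Alternatives changed the pseudocount, filter, scaling, libraries fitted, replicate block, or left out 1 library.

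Genes named were, among members, the 2 highest and the 2 deepest lows in storage clove, the 2 largest rises and falls in each of the 3 basal comparisons among calls without overlap, the genes at the threshold, and the 2 extremes each way of the basal-to-storage and germinating-to-enlarging ratios. Replicate pairs differed by more than sampling noise, with a chi-square per gene of 2.68 to 65.9 over 18 pairs, so each library counted once.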

Additional observations from a re-analysis of the deposited data

Results flagged for a closer look

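For 15 of the 183 members (8.20%), all dormant basal libraries lay above all enlarging basal ones, while all dormant storage libraries lay below all enlarging storage ones. For these members the dormant libraries were thus higher in basal clove and lower in storage clove than the enlarging ones. The count is not read as a trait of the members. The storage direction was fixed by how the members were chosen, and the difference between the tissues was not tested. Among all 30530 genes tested, 6.64% had this arrangement, but their storage direction was not fixed, so the shares are not like for like. On the basal side alone, 11 members (6.01%) were called higher at dormancy. The share was 16.5% of all genes tested and 20.9% of the genes at the storage floor. Asa4G01649.1 and Asa1G00637.1 were among the members with it.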

How the results depend on the processing

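Over the alternatives that left out 1 library, the basal falls from enlarging to dormant numbered 33 to 67 of 183 and all calls 42 to 77 (61 and 72 with every library), the rises 9 to 11. From dormant to germinating, rises numbered 132 to 154, falls 1 to 3 and all calls 133 to 156. From enlarging to germinating, rises numbered 106 to 120, falls 4 to 14 and all calls 113 to 124. The choosing rule found 152 to 218 genes, and 3 to 18 members met it in basal clove as well. Voom on recovered reads gave 36 falls at dormancy (19.7%, near its 18.0% of all genes), and median-ratio scaling gave 1 fall at germination. A dormant limit of 33% in place of 25% gave 277 genes, a floor of 5 FPKM gave 281 and a floor of 20 FPKM gave 114. A basal dormant limit of 50% gave 32 members. The cause was not tested for any of these, beyond the wider or narrower limits themselves. Median-ratio scaling and quantile normalization left 171 and 144 of the 183 members. Of 180 values of named members under the alternatives, 172 kept their direction and their call, and none changed sign. With the replicate number as a block, 63 members fell and 11 rose at dormancy, 151 rose at germination and 114 were higher in germinating than in enlarging basal clove. Same-numbered basal libraries of different stages correlated in their deviations from the group mean at -0.19 to 0.12. For same-numbered basal and storage libraries of 1 stage, the values for replicates 1 to 3 were -0.07, -0.01 and -0.20 in enlarging bulbs. They were 0.01, -0.01 and 0.02 in dormant and 0.07, -0.24 and 0.05 in germinating bulbs. Correlations of deviations from means of 3 libraries cannot exclude that the numbers pair libraries. Depth limits the dormant storage values, where 62 members rest on under 30 reads.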
